A study of Mus musculus with 4 samples.

Results

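The CC chemokine ligands examined here were the 10 genes Ccl2, Ccl3, Ccl4, Ccl5, Ccl6, Ccl7, Ccl9, Ccl17, Ccl22 and Ccl24, chosen by name out of 16403 genes with reads in any library. Each of the 10 had a row in the tables under its NCBI mouse gene ID. All 10 were listed in both IL-4 libraries, and 9 were listed in each untreated library, where Ccl17 had no reads and was set to 0. Expression was measured by RNA sequencing of thioglycolate-elicited peritoneal macrophages of C57BL/6 mice that were 6 to 8 weeks old. The 4 groups were wild-type untreated, wild-type given mouse IL-4 at 20 ng/mL for 6 h, TIF1a-/- untreated and TIF1a-/- given the same IL-4. TIF1a is another name of Trim24, and the knockout carried floxed Trim24 alleles with a lysozyme M Cre transgene, which deletes the gene in cells of the myeloid lineage only. Cells of every group had been elicited with 4% thioglycolate for 4 days, left to adhere for 4 h and then kept in medium with 0.5% serum. How many mice went into a library was not stated.

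CC chemokines are small secreted proteins with a pair of adjacent cysteines near the start of the mature chain. They bind G protein-coupled receptors on leukocytes and guide their migration, and macrophages are a main source of many of them. Many of them, such as Ccl2 to Ccl5, are made after inflammatory stimuli through NF-kB, whereas Ccl17, Ccl22 and Ccl24 are known for alternatively activated (M2) macrophages, where IL-4 acts through the transcription factor Stat6.

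With 1 library in each group there is no replicate behind any of the differences, and the tests on reads set libraries, not conditions, against each other. The libraries held 11026033 to 11250099 expected reads, and 3 reads, the floor used here, corresponded to 0.267 to 0.272 CPM (reads scaled by library total). Trim24 had 2.55 FPKM untreated and 1.48 with IL-4 in wild-type cells, against 0.06 and 0.14 in knockout cells. FPKM scales reads by transcript length and library total, so it can be compared between genes. All 7 macrophage markers looked up had reads in every library, with Cd68 between 3005 and 3465 FPKM and Csf1r between 135 and 285 FPKM. In bulk RNA such as this, fewer cells of a type and less RNA per cell cannot be told apart. All intervals, standard errors and floors given here cover counting error only.

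Ccl6 had the highest level of the 10 ligands in each library. Its level was 144 FPKM in wild-type cells left untreated and 426 with IL-4, and 223 and 479 FPKM in the corresponding knockout cells. Ccl3 followed in both untreated libraries, at 60.1 FPKM for wild-type and 51.6 for knockout cells, ahead of Ccl9 at 24.3 and 31.9. With IL-4 Ccl9 came next after Ccl6, at 109 and 100.1 FPKM, followed by Ccl3 at 34.9 and 24.7. Ccl17 was the lowest of the 10 in each library, but its 95% counting interval lay clear of the next ligand only in the knockout IL-4 library. The 95% counting intervals of the first 3 ligands did not overlap in any library, whereas those of Ccl4 and Ccl5 overlapped in each of the 3 libraries in which they were neighbours in the order. With IL-4 Ccl2 stood above Ccl7 without overlap in both genotypes, and Ccl5 overlapped Ccl2 in the knockout. Among the low ligands with IL-4, the intervals of Ccl4, Ccl24 and Ccl22 overlapped from each to the next in both genotypes.

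**Figure D1:**
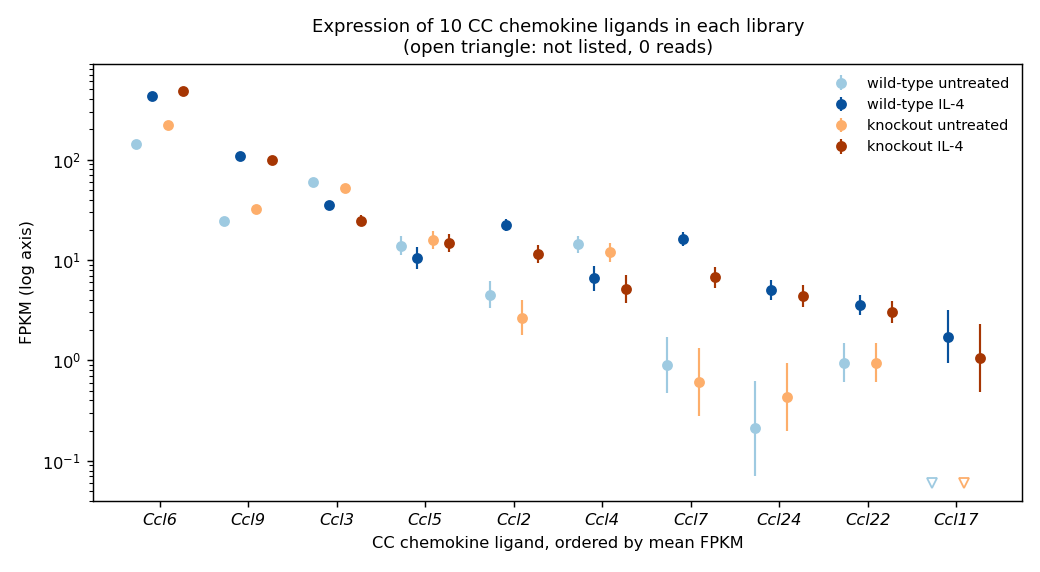
FPKM of the 10 CC chemokine ligands (x axis, ordered by mean) on a log axis, with 1 point per library and bars for the 95% Wilson counting interval. Ccl6 lies at 144 to 479 FPKM, while Ccl17, drawn as open triangles where it had 0 reads, reaches 1.73 FPKM at most.

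Summed over the 10 ligands, the level was 264 FPKM in untreated wild-type cells and 636 with IL-4, and 339 in untreated knockout cells and 651 with IL-4. Ccl6 made up 54.7% of this sum in the untreated wild-type library, 67.0% in the wild-type IL-4 library, 65.9% in the untreated knockout library and 73.7% in the knockout IL-4 library. The share of Ccl3 was lower with IL-4, at 5.49% against 22.8% in the wild-type and 3.80% against 15.2% in the knockout. Without Ccl6 and Ccl9 the sums were 94.96 FPKM untreated and 101 with IL-4 for wild-type cells, and 83.9 and 71.4 FPKM for knockout cells. The difference in the total between the treatments therefore lay almost wholly in these neighbouring genes.

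**Figure D2:**
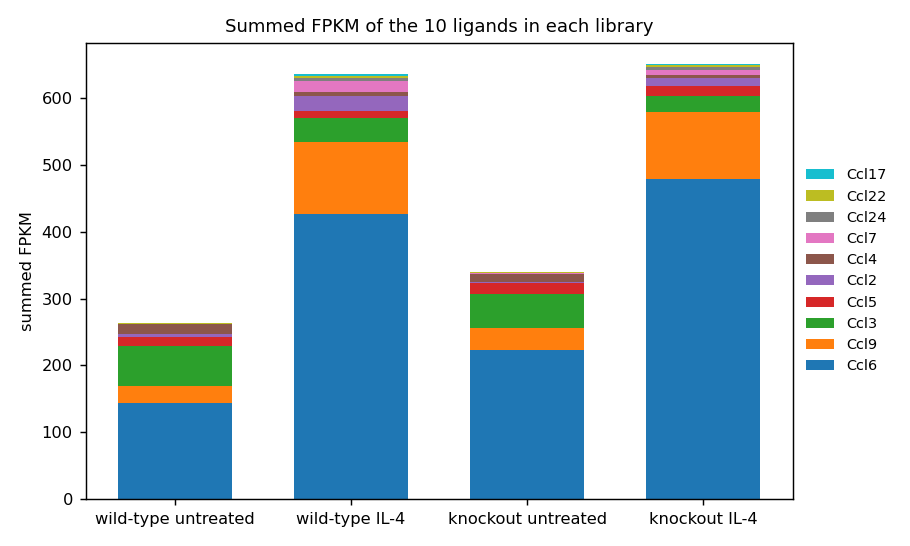
Stacked bars of the summed FPKM of the 10 ligands in each of the 4 libraries, 1 colour per gene. The bars with IL-4 reach 636 and 651 FPKM against 264 and 339 without, and Ccl6 fills 54.7% to 73.7% of each bar.

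The IL-4 response was measured in each genotype as the ratio of the treated to the untreated library. In the wild-type 7 of the 10 ligands rose (Ccl2, Ccl6, Ccl7, Ccl9, Ccl17, Ccl22 and Ccl24), 2 fell (Ccl3 and Ccl4) and Ccl5 did not pass the test. In the knockout 6 rose, 2 fell, and Ccl17 and Ccl5 did not pass. Calls needed more than a 1.5-fold difference and an adjusted p below 0.05 in Fisher's exact test on reads (two-sided, adjusted over all genes with a read in the pair). Of all genes tested, 4.91% were called higher and 7.88% lower in the wild-type, and 5.29% higher and 4.03% lower in the knockout. With a trend of the ratios over transcript length removed, the counts of ligands stayed at 7 and 2 in the wild-type and 6 and 2 in the knockout, against 5.18% and 5.23% of all genes higher and lower in the wild-type and 5.16% and 4.05% in the knockout. On the log2(FPKM + 0.1) scale the median IL-4 ratio of the 10 ligands was 1.97 for wild-type and 1.61 for knockout cells, against -0.03 and 0 over all genes tested. With Ccl17 at the floor of 3 reads in place of 0 in the untreated library the medians were 1.75 and 1.33.

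**Figure D3:**
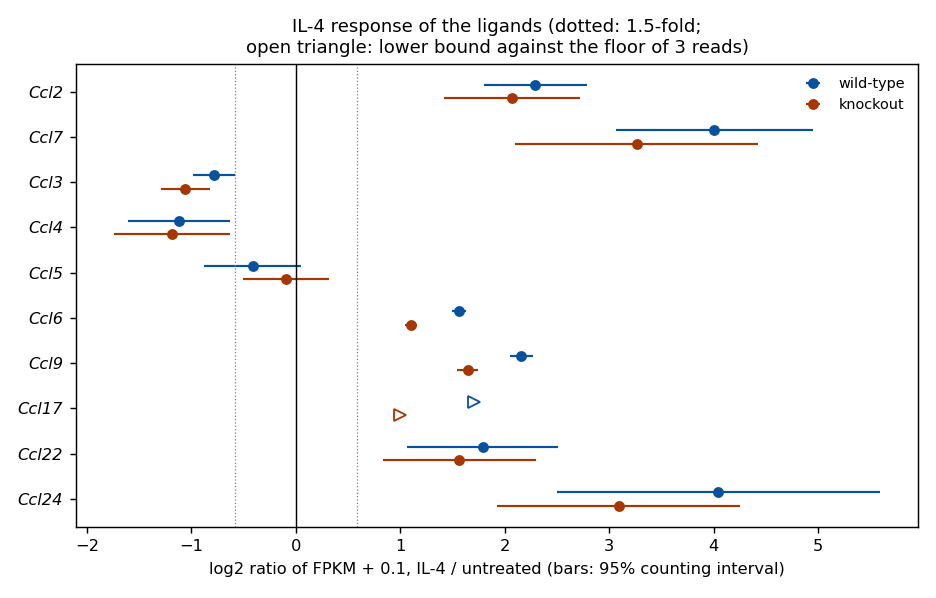
Log2 ratio of FPKM + 0.1 with against without IL-4 (x axis) for each ligand in wild-type (blue) and knockout (brown) libraries, with bars for the 95% counting interval and dotted lines at 1.5-fold. Ccl2, Ccl7, Ccl6, Ccl9, Ccl22 and Ccl24 lie to the right of the dotted line in both genotypes, Ccl3 and Ccl4 to the left, and the open triangles give the lower bounds of Ccl17.

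Ccl2 and Ccl7, ligands of CCR2, the receptor by which inflammatory monocytes leave the bone marrow and enter tissue, rose with IL-4. Ccl2 (MCP-1, chr11:82035577-82037452, plus strand, GRCm38) stood at 4.51 FPKM in wild-type cells without IL-4 and 22.5 with it, and at 2.66 FPKM in knockout cells without IL-4 and 11.5 with it. These values rested on 39, 198, 23 and 99 reads. Ccl7 (MCP-3, chr11:82045712-82047525, plus strand) stood at 0.91, 16.1, 0.61 and 6.72 FPKM in the same order, on 9, 162, 6 and 66 reads. For each gene both IL-4 libraries lay above both untreated libraries, and the wild-type IL-4 library was the highest. The log2 IL-4 ratio of Ccl2 was 2.29 ± 0.25 (SE) for wild-type (adjusted p = 5.2e-25, Fisher's exact test) and 2.07 ± 0.33 for knockout cells (adjusted p = 1.8e-11). That of Ccl7 was 4.01 ± 0.48 (adjusted p = 2.5e-35) and 3.26 ± 0.59 (adjusted p = 6.4e-13). The level of Ccl2 was 4.96 times that of Ccl7 in untreated wild-type cells and 1.39 times with IL-4, and 4.36 and 1.71 times in the knockout.

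Ccl6 and Ccl9 (MRP-1 and MRP-2) are mouse ligands that act through CCR1, and lie side by side on the minus strand of chromosome 11, at chr11:83587886-83593087 and chr11:83572917-83578636. Ccl6 rested on 2269 reads in untreated and 6837 in IL-4-treated wild-type cells, and on 3510 and 7526 in their knockout counterparts, the most of any of the 10 ligands. Its log2 IL-4 ratio was 1.56 ± 0.03 for wild-type and 1.10 ± 0.03 for knockout cells, or a ratio of reads scaled by library total of 2.96 (95% exact interval, 2.82 to 3.10) and 2.14 (2.06 to 2.23). Ccl9 rested, in the same order, on 811, 3705, 1064 and 3337 reads. It had a log2 IL-4 ratio of 2.16 ± 0.06 among wild-type and 1.65 ± 0.05 among knockout cells. The IL-4 libraries stood above the untreated libraries for both genes. The level of Ccl6 was 5.94 and 7.01 times that of Ccl9 without IL-4 and 3.92 and 4.79 times with IL-4, in wild-type and knockout.

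The 250 bases before the start of these neighbours are shown because they rose together and were the most abundant of the ligands that rose. Capitals mark GGAAGT, the core read by ETS-family factors, on either strand. The sequences are those of RefSeq on GRCm38.p6, written in the direction of the gene, at chr11:83593088-83593337 for Ccl6 and chr11:83578637-83578886 for Ccl9.
Ccl6: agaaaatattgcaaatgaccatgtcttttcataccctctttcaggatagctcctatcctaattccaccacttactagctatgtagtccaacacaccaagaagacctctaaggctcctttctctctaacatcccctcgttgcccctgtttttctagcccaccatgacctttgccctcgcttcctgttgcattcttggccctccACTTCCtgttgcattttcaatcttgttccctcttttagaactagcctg
Ccl9: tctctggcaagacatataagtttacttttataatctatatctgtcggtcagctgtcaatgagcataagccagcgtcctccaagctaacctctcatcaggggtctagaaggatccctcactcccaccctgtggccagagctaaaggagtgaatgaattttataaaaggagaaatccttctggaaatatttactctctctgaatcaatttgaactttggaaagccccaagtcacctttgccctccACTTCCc
Their longest shared run was 13 bases, gccctccacttcc, and it holds the marked letters in both. Of the 10 ligands 5 had an entry in the promoter table (Ccl3, Ccl6, Ccl9, Ccl17 and Ccl22). GGAAGT lies in that shared run and was chosen after values were seen, so its count is a description and no test. It was found in 4 of these 5, against 19.7% of 32851 promoters of the same length. Ccl3, which fell with IL-4, was among the 4.

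Ccl3, Ccl4 and Ccl5 (MIP-1 alpha, MIP-1 beta and RANTES) are typical products of inflammatory activation. Ccl3 (chr11:83647843-83649378, minus strand) went from 60.1 FPKM untreated to 34.9 with IL-4 in wild-type cells, and from 51.6 to 24.7 in knockout cells. Both IL-4 libraries lay below both untreated libraries. The log2 IL-4 ratio of Ccl3 was -0.78 ± 0.10 for wild-type (adjusted p = 2.9e-13, Fisher's exact test) and -1.06 ± 0.12 for knockout cells (adjusted p = 1.9e-18). Ccl4 went from 14.4 FPKM to 6.57 in wild-type cells and from 11.9 to 5.17 in knockout cells, on 103, 48, 85 and 37 reads. Its log2 ratios were -1.12 ± 0.25 (adjusted p = 2.6e-05) and -1.18 ± 0.28 (adjusted p = 0.00013). The level of Ccl3 stayed between 4.18 and 5.31 times that of Ccl4 in the 4 libraries. In RefSeq the span of Ccl4 (chr11:83648624-83664683, plus strand) overlaps Ccl3 through a predicted transcript. The tables list 1 curated transcript of 674 bases for Ccl4, and GENCODE M21 places the gene at chr11:83662584-83664683, clear of Ccl3. Ccl5 (chr11:83525778-83530518, minus strand) had 13.9 FPKM untreated and 10.5 with IL-4 in wild-type cells, and 15.8 and 14.8 in knockout cells. Its log2 IL-4 ratios of -0.41 ± 0.24 (adjusted p = 0.2, Fisher's exact test) and -0.09 ± 0.21 (adjusted p = 0.9) did not pass, and the exact 95% intervals of the read ratio ran from 0.535 to 1.05 and from 0.696 to 1.26.

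Ccl17 and Ccl22 (TARC and MDC), the ligands of CCR4 on type 2 helper and regulatory T cells, are neighbours on chromosome 8, at chr8:94809380-94812038 and chr8:94745684-94751388, both on the plus strand. Ccl22 had 0.95 FPKM untreated and 3.53 with IL-4 in wild-type cells, and 0.95 and 3.01 in knockout cells, on 19, 72, 19 and 60 reads. Its log2 IL-4 ratio was 1.79 ± 0.37 (adjusted p = 1.8e-07, Fisher's exact test) and 1.57 ± 0.38 (adjusted p = 2.3e-05). Ccl17 had no reads in either untreated library, 10 reads with IL-4 in the wild-type (1.73 FPKM) and 6 with IL-4 in the knockout (1.06 FPKM). Set against the floor of 3 reads, the scaled IL-4 reads gave a ratio of 3.27 for wild-type and 2.001 for knockout cells. Fisher's exact test, with 0 untreated reads, gave an adjusted p of 0.0077 and 0.06. The ratios to the floor leave out the counting error of the IL-4 reads. Exact 95% lower limits of the read ratio were 2.20 for wild-type and 1.18 for knockout cells. Ccl24 (eotaxin-2, chr5:135569935-135573123, minus strand), which attracts eosinophils through CCR3, had 0.21 FPKM untreated and 5.02 with IL-4 in wild-type cells, and 0.43 and 4.41 in knockout cells, on 3, 72, 6 and 62 reads. The ratio of reads, scaled by library total, with against without IL-4 was 23.5 in the wild-type (95% exact interval, 7.74 to 117) and 10.3 in the knockout (4.49 to 29.2). The untreated reads of these genes were few, so the size of their rise is loosely known. The study names Ccl17 and Ccl24 among its M2 genes.

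The 250 bases before the start of the curated Ccl17 transcript and of Ccl22 are shown because Stat6 binds DNA motifs of the form TTCNNNNGAA. Capitals mark that motif, the related TTCNNNGAA of other STAT factors, and GGAAGT, each on either strand. The RefSeq sequences lie on the plus strand of GRCm38.p6 at chr8:94810203-94810452 and chr8:94745434-94745683.
Ccl17: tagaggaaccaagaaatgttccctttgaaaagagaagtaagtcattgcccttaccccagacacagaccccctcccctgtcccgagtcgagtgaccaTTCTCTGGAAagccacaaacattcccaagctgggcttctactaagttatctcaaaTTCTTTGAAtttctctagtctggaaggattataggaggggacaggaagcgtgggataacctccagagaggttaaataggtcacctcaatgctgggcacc
Ccl22: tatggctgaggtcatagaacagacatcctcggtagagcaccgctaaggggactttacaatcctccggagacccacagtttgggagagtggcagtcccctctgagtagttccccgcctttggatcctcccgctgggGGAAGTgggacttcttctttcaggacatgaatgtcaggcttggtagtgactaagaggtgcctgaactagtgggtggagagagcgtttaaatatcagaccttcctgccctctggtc
Ccl17 held TTCNNNNGAA from 154 to 145 bases and TTCNNNGAA from 99 to 91 bases before its start, the former found in 5.85% and the latter in 7.02% of the 32851 promoters. Neither string was in this window of the other 4 ligands with an entry, and all 5 were searched for the NF-kB consensus too, which Ccl9 held and 3.90% of all promoters hold. TATAAA was likewise found in Ccl9 alone, against 12.4% of all promoters. These are matches of letters and were not tested for binding.

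The wild-type and knockout libraries were then fitted together with additive effects of treatment and genotype, which leaves 1 residual degree of freedom. This fit assumes that the genotypes do not differ in their response to IL-4. Of the 10 ligands 9 passed the filter on low counts, and Ccl17 did not. By edgeR's quasi-likelihood test adjusted over 11791 genes, Ccl2, Ccl6, Ccl7, Ccl9, Ccl22 and Ccl24 were higher with IL-4, Ccl3 and Ccl4 were lower and Ccl5 did not pass (adjusted p = 0.41). By DESeq2 the same ligands but Ccl4 were called. Of all genes in that fit 12% were higher and 13.3% lower with IL-4. The fitted log2 IL-4 effects ran from -1.15 for Ccl4 to 3.88 for Ccl7. These calls take the genotypes as the repeat of the treatment. With the biological coefficient of variation between libraries set to 0.2 in place of counting error alone, the IL-4 calls of Ccl3, Ccl4 and Ccl17 were lost in the wild-type pair and those of Ccl3, Ccl4, Ccl6 and Ccl22 in the knockout pair.

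Whether the ligands differ between knockout and wild-type was measured without and with IL-4. Without IL-4, Ccl6 rose in the knockout and no other ligand was called, out of 9 with reads. Ccl6 was at 223 FPKM against 144, a log2 ratio of 0.63 ± 0.04 (adjusted p = 9.4e-58, Fisher's exact test). Of all genes tested in this pair, 0.839% were called higher and 0.742% lower, or 0.819% and 0.755% with the length trend removed. The call of Ccl6 was lost at a fold of 2 and under an assumed coefficient of variation of 0.2. Ccl9 was at 31.9 against 24.3 FPKM, a log2 ratio of 0.39 ± 0.07 that was under 1.5-fold. Ccl2 had 23 reads in the knockout and 39 in the wild-type, a read ratio of 0.590 with an exact 95% interval of 0.336 to 1.01. For Ccl7, with 6 and 9 reads, Ccl22, with 19 and 19, and Ccl24, with 6 and 3, no difference could be detected at this depth. The median log2 ratio over the 9 ligands was 0, against -0.0038 over all genes tested.

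With IL-4, Ccl2 and Ccl7 fell in the knockout, and the other 8 ligands were not called. Of all genes tested in this pair 0.764% were called lower and 3.05% higher. Ccl2 was at 11.5 FPKM in the knockout and 22.5 in the wild-type, a log2 ratio of -0.96 ± 0.18 (adjusted p = 3.7e-07, Fisher's exact test). Ccl7 was at 6.72 against 16.1 FPKM, a log2 ratio of -1.25 ± 0.21 (adjusted p = 9.1e-09). Both genes were also the lower in the knockout without IL-4 (log2 ratios of -0.74 and -0.51), where they were not called. In the additive fit both were lower in the knockout (edgeR adjusted p = 0.029 for each), with fitted log2 effects of -0.92 and -1.19, against 0.373% of all genes lower and 1.29% higher there. These calls did not hold under an assumed coefficient of variation of 0.2 (adjusted p = 1.0 for each), by DESeq2 in the additive fit (adjusted p = 0.94 for Ccl2 and 1 for Ccl7), or without the filter on low counts (adjusted p = 0.25 and 0.28). In the additive fit they held under upper-quartile scaling (edgeR adjusted p = 0.00039 for Ccl2 and 0.00031 for Ccl7) and with the length trend as an offset (0.0026 and 0.0017). There the adjusted p of their IL-4 effects was also far smaller than with TMM scaling alone. These p-values thus depended strongly on the setting and do not measure how firm the calls are. Both of these settings also called Ccl6 by genotype, which had an adjusted p of 0.094 and a log2 effect of 0.39 in the edgeR fit with TMM scaling. That single effect stands for pair ratios of 0.63 untreated and 0.17 with IL-4.

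Ccl3 was at 24.7 FPKM in the knockout with IL-4 and 34.9 in the wild-type, a log2 ratio of -0.50 ± 0.13 (adjusted p = 0.001, Fisher's exact test) that was under 1.5-fold. Ccl6 had a log2 ratio of 0.17 ± 0.02 and Ccl9 of -0.12 ± 0.03 in this pair, likewise under 1.5-fold. Ccl22 (60 against 72 reads), Ccl24 (62 against 72) and Ccl17 (6 against 10) were each lower in reads in the knockout, with exact 95% intervals of the read ratio of 0.593 to 1.21, 0.615 to 1.25 and 0.183 to 1.86. Across these libraries log2 ratios moved with transcript length, and the transcripts of the ligands measured 541 to 3008 bases. Removal of this length trend changed the shares of all genes called most in the pairs that hold the wild-type IL-4 library. The share called lower with IL-4 went from 7.88% to 5.23% in the wild-type, and from 4.03% to 4.05% in the knockout. Between genotypes, the share called higher went from 3.05% to 1.39% with IL-4, and from 0.839% to 0.819% untreated. With that trend removed, Ccl5 (14.8 against 10.5 FPKM) was called higher in the knockout with IL-4, at a log2 ratio of 0.68 in place of 0.50 (adjusted p = 0.036, exact binomial test), where 1.39% of all genes were called higher and 0.629% lower. The ratios of Ccl2 and Ccl7 became -0.79 and -1.09 and kept their calls. Over the 10 ligands the median log2 ratio with IL-4 was -0.28, and -0.15 with the trend removed, against 0.02 and 0.0011 over all genes tested.

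**Figure D4:**
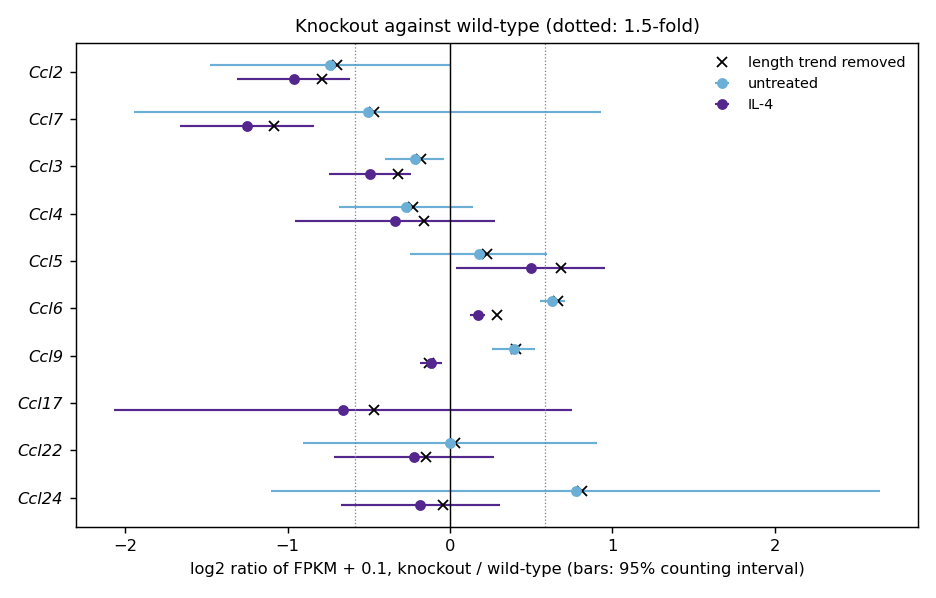
Log2 ratio of FPKM + 0.1 in knockout against wild-type (x axis) for each ligand, untreated (light blue) and with IL-4 (purple), with bars for the 95% counting interval, dotted lines at 1.5-fold and crosses for the ratio with the length trend removed. Ccl2 and Ccl7 with IL-4 lie to the left of the dotted line at -0.96 and -1.25, and untreated Ccl6 lies to the right at 0.63. Ccl17 has no untreated value because it had no reads there.

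Whether the genotypes differed in their response to IL-4 was tested directly, on log2 reads with 0.5 added and against counting error. No ligand passed both an adjusted p of 0.05 and 1.5-fold, against 2.43% of the 13408 genes tested, while 2 of the 10 had an unadjusted p under 0.05. These were Ccl6, with a difference (knockout minus wild-type) of -0.46 (95% counting interval, -0.55 to -0.37), and Ccl9, with -0.51 (-0.66 to -0.37). Both passed the adjusted p alone, as did 10.8% of all genes tested. For Ccl2 the difference was -0.22 (-1.03 to 0.60), for Ccl7 -0.71 (-2.21 to 0.78) and for Ccl24 -1.08 (-3.02 to 0.86), intervals that leave room for sizeable differences in either direction. Ccl5 alone had a positive difference, 0.32 (-0.30 to 0.94), joined by Ccl4 at 0.07 with the length trend removed. Only the intervals of Ccl6 and Ccl9 kept to a single sign. The median difference over all genes tested was 0.043, and 0.0047 with the length trend removed. The comparisons of genotype and of treatment share libraries, so their values are not independent of each other.

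The CC ligands beyond these 10 were few and low. Of 11 looked up (Ccl1, Ccl8, Ccl11, Ccl12, Ccl19, Ccl20, Ccl21a, Ccl25, Ccl26, Ccl27a and Ccl28), 6 had reads in a library. Ccl8 and Ccl11, which lie beside Ccl2 and Ccl7 on chromosome 11, were called higher with IL-4 in the wild-type, and none was called in the other 3 pairs. Ccl11 (eotaxin-1, a ligand of CCR3) had 0 and 12 reads in the wild-type (adjusted p = 0.0022, Fisher's exact test) and 0 and 4 in the knockout. With the floor of 3 reads in place of 0 its wild-type ratio was 3.92, and the exact 95% lower limit was 2.73. Ccl8 (MCP-2) had 0 and 7 reads in the wild-type (adjusted p = 0.048), a call lost on removal of the length trend (adjusted p = 0.058, exact binomial test), and 1 and 7 in the knockout. Ccl12 (MCP-5), a further ligand of CCR2, had at most 2 reads in a library and was not called. Ccl25, Ccl27a and Ccl28, ligands known mainly from epithelial tissues, lay between 0.86 and 1.88 FPKM in each library and were not called in any pair.

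Along chromosome 11 the ligand genes lie in 2 stretches. In the stretch of Ccl2, Ccl7, Ccl11, Ccl12 and Ccl8, the left ends of the first and last gene are 79.6 kb apart. Each of these genes had more reads with IL-4 in both genotypes, but Ccl12 had at most 2 reads in a library. In the knockout only Ccl2 and Ccl7 of them were called. Of all genes tested, 7045 of 15593 had a positive log2 IL-4 ratio in the wild-type and 7712 of 15738 in the knockout. Ccl5, Ccl9, Ccl6, Ccl3 and Ccl4 lie further on, with the left end of Ccl5 1490 kb from that of Ccl2. There Ccl9 and Ccl6 rose, and Ccl3, with its left end 60.0 kb from that of Ccl6, fell together with Ccl4.

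**Figure D5:**
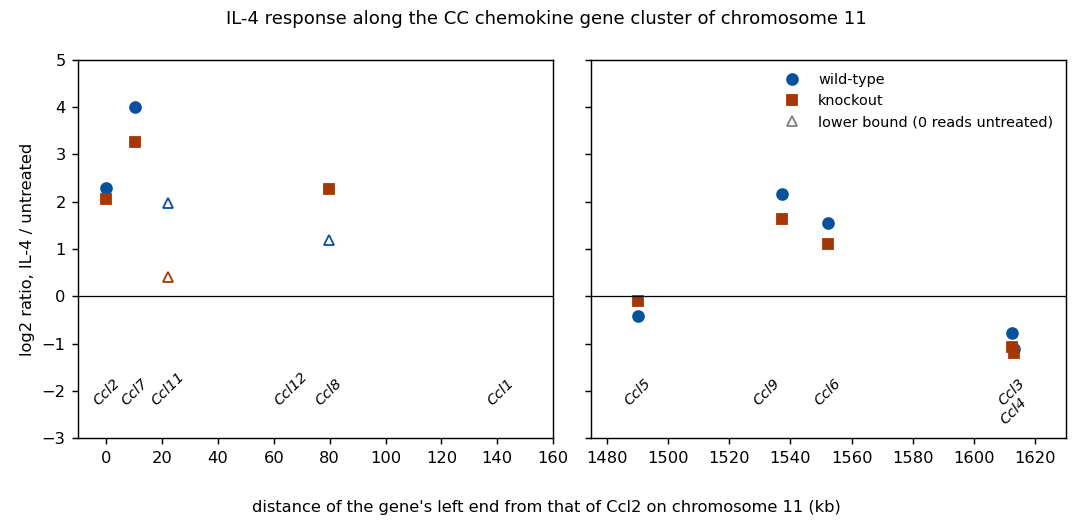
Log2 IL-4 ratio (y axis) of CC ligand genes against the distance of their left end from that of Ccl2 on chromosome 11 in kb, in wild-type (circles) and knockout (squares). Open triangles give the ratio against the floor of 3 reads where the untreated library had 0 reads, without the counting error of the IL-4 reads. Ccl12 and Ccl1, with 3 reads or fewer in a pair, are named without a point. Ccl2 and Ccl7 lie above 2 on the log2 scale at the left, and Ccl3 and Ccl4 lie below 0 at the far right.

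Among the CC chemokine receptors described here, Ccrl2 was called in both genotypes with IL-4, and none was called between the genotypes. Ccrl2, a receptor that binds chemerin without signalling, fell with IL-4, with 76.8 and 28.9 FPKM in wild-type cells, 102 and 35.0 FPKM in knockout cells, and log2 ratios of -1.41 and -1.54. Ccr1, the receptor of Ccl6 and Ccl9, lay at 8.13 to 9.65 FPKM and was not called in any pair. Ccr7, the receptor of mature dendritic cells, lay at 1.56 to 1.93 FPKM. Ccr2 lay at 0.26 to 0.41 FPKM, and Ccr3 and Ccr4, the receptors of Ccl24 and of Ccl17 and Ccl22, had at most 1 read in a library.

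Genes with the most similar pattern over the 4 libraries were sought by the distance between log2(FPKM + 0.1) profiles centred on each gene's mean, leaving out genes whose mean was under 5 FPKM. For Ccl4, the ligand with the lowest mean IL-4 ratio, the nearest were Cxcl16 (distance 0.0790), Por (0.151) and Thbd (0.160). Cxcl16, itself a chemokine, had 33.8 FPKM untreated and 14.8 with IL-4 in wild-type cells, and 27.0 and 12.5 in knockout cells. For Ccl17, which had the highest mean ratio on this scale because it had no untreated reads, the nearest were Scimp (0.503), Ier3 (0.541) and Ms4a4a (0.546). Such a likeness over 4 libraries is a description.

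Markers of other cells that make CC ligands were looked up, and each lay below Cd68 and Csf1r in every library. The summed level of 6 dendritic cell markers was 2.77 FPKM in both wild-type libraries, 2.69 in the untreated knockout and 2.91 in the knockout with IL-4, with reads for all 6 in both wild-type libraries and for 5 in both knockout libraries. Most of this sum was Ccr7. The marker Cd209a had 0.06 FPKM untreated and 0.24 with IL-4 in wild-type cells, and 0.12 and 0.37 in knockout cells, on 1 to 6 reads. The part of dendritic cells in the values of Ccl17 and Ccl22 was not tested. The 5 eosinophil markers summed to between 1.44 and 2.47 FPKM, with Epx not listed, and the 5 B cell markers to between 4.23 and 6.52 FPKM. Of 5 mast cell markers 4 were listed. They summed to 4.58 FPKM untreated and 3.58 with IL-4 in wild-type cells, and to 8.96 and 5.5 in knockout cells. The part of mast cells in the values of the ligands was not tested. Of 6 T and NK cell markers 5 were listed and summed to between 0.85 and 1.54 FPKM. Of the 5 neutrophil markers only S100a8 was listed, at 5.15 to 8.76 FPKM. The 6 mesothelial and stromal markers, from cells that can make Ccl2, Ccl7 and Ccl11, summed to 23.7 FPKM untreated and 18.0 with IL-4 in wild-type cells, and to 11.3 and 23.8 in knockout cells, and all 6 had reads in each library. Single markers differed from the sum, which Col1a1 led in each library. With IL-4, Col1a1 was at 15.4 FPKM in knockout against 8.46 in wild-type cells, and Msln (13 against 2 reads) was also the higher in the knockout. Col3a1 (237 against 296 reads), Pdgfra (159 against 187) and Upk3b (3 against 7) were the lower there. Krt19 had 25 reads in both IL-4 libraries. From untreated to IL-4 in the knockout, Col1a1 went from 4.81 to 15.4 FPKM, whereas Pdgfra went from 2.38 to 2.17 and Upk3b from 0.58 to 0.13. The part of stromal cells in the values of Ccl2, Ccl7 and Ccl11 was not tested.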

How the data were processed

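Total RNA was sequenced on an Illumina HiSeq instrument in 4 libraries, 1 per group, with the groups taken from the labelled genotype and treatment. The authors used Bowtie for mapping to GRCm38 (mm10) and RSEM for gene counts (versions not given in the sources used here). The deposited expected counts are the reads RSEM assigned to a gene, of which 22.2% to 22.8% were not whole. The deposited FPKM values divide them by effective transcript length and library total. A gene without reads has no row and was taken as 0. The length column of the authors' tables, in bases, served the length trend. Strand use in counting is not stated, and reads of near-identical genes are divided by RSEM's model. Of 16403 gene IDs, 16365 matched a RefSeq symbol of GRCm38.p6.

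Expected counts were rounded to whole numbers. In each pair, every gene with a read was tested by Fisher's exact test (two-sided, Benjamini-Hochberg adjustment over these genes). Calls needed an adjusted p below 0.05 and more than 1.5-fold on log2(FPKM + 0.1), a scale on which low genes change by less. SEs are the square root of the sum of 1/(count + 0.5) over the pair, divided by the natural log of 2. The additive fit used edgeR 4.0.16 (TMM, filterByExpr, quasi-likelihood) in R 4.3.3, with DESeq2 1.42.0 as an alternative. The length trend was a lowess curve (fraction 0.3). Differences of IL-4 responses used genes with at least 10 reads over the 4 libraries. Intervals are 95% Wilson or exact. With 1 library per group, p-values do not measure variation between mice or cultures.

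The 10 ligands, the lists of 11 other ligands, receptors and cell markers, and the tests were chosen with earlier results of these data known. Named were all 10 ligands, listed genes called in any pair or else the 4 highest of a list, Trim24, and the 3 nearest profiles of the ligands with the highest and lowest mean IL-4 ratio. Other genes named were chosen after their values were seen, as was the motif GGAAGT. Of the receptor list, 1 result is not reported here. The tests were checked on simulated data that carried counting error alone, or a small set variation for the additive fit. That check therefore does not cover variation between mice. For the difference of IL-4 responses it also subtracted the median over genes, which the reported test did not. Alternatives were other pseudocounts, TMM, CPM, upper-quartile scaling, a fold of 2, a filter of 1 FPKM, removal of the length trend, and edgeR's exact test with the biological coefficient of variation set to 0.2 or 0.4.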

Additional observations from a re-analysis of the deposited data

Results flagged for a closer look

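Ccl6 and Ccl9 stood out because their IL-4 responses differed between the genotypes by a test of the difference itself. For Ccl6 the difference of the log2 responses, knockout minus wild-type, was -0.463 (adjusted p = 1.6e-21, normal test against counting error in 4 libraries), and -0.38 with the length trend removed. For Ccl9 it was -0.514 (adjusted p = 9.3e-10), and -0.54 with the trend removed. Both genes rose in both genotypes, and both were at a higher level in the untreated knockout than in the untreated wild-type library. Each difference was smaller than 1.5-fold, 10.8% of all genes passed the same adjusted p, and no value measures the spread between mice. Since the untreated libraries enter every such difference, an untreated level that is high in the knockout and a weaker response cannot be told apart.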

How the results depend on the processing

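No paired analysis was possible because each group holds 1 library and the labels give no replicate numbers, and for the same reason no library could be left out. Pseudocounts of 0.01 and 1, TMM scaling and CPM changed no call and no direction among the 39 ratios of ligands with reads in a pair, and removal of the length trend changed 1 (Ccl5, above). Testing only genes averaging 1 FPKM or more kept every count of called ligands within 1.5 times. An assumed biological coefficient of variation of 0.2 left 4 of 8 calls for IL-4 in the knockout, 0 of 1 between untreated genotypes and 0 of 2 between genotypes with IL-4. At 0.4 these counts were 0, 0 and 0, and 2 of 9 IL-4 calls in the wild-type remained (Ccl7 and Ccl24). A fold of 2 left 0 calls between untreated genotypes and 1 with IL-4, Ccl7. For genotype in the additive fit, DESeq2 called 0 ligands (2 at an unadjusted p under 0.05) and edgeR without the filter on low counts 0 (4 at an unadjusted p under 0.05). For these settings, here and above, no share of all genes called is given. Whether the losses of calls are particular to the ligands therefore cannot be told. Depth limits Ccl7, Ccl17, Ccl22 and Ccl24, which had at most 19 reads in the untreated libraries.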

Other observations

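On the log2(FPKM + 0.1) scale Ccl7 had a mean IL-4 ratio over the genotypes of 3.64 and Ccl24 of 3.57, an order that turned with a pseudocount of 0.01 and with CPM. For Ccl7, the nearest profiles, sought after its values were seen, were Ms4a4a (distance 0.864), Dab2 (0.868) and Ier3 (0.877), farther than the neighbours of Ccl4. Ms4a4a had 1.51 FPKM untreated and 48.3 with IL-4 in wild-type cells, and 1.66 and 24.3 in knockout cells, so that its IL-4 level was also the lower in the knockout. Dab2 had 79.0 FPKM with IL-4 in wild-type cells and 71.1 in knockout cells.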
